A study of Mus musculus with 6 samples.

Results

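Mitochondrial ribosomal protein genes, the nuclear genes named Mrpl or Mrps followed by a number, were followed through an early step of mouse B-cell development in 6 RNA-seq libraries. The deposited table holds 84 entries (transcripts) with such a name, for 76 gene symbols. For each symbol the entry with the highest mean was kept, and 73 symbols had a mean of at least 1 RPKM (reads scaled by the length of the transcript and the size of the library) over the 6 libraries. These 73 genes are the members described here, of 10943 genes that passed the same filter among 22098 symbols in all. The rule used no difference between libraries, only the name and the mean level. The symbols outside the filter were Mrps33 (mean 0.683 RPKM), Mrps36 (0.633 RPKM) and Mrpl23 (0.417 RPKM), and the members closest to it from above were Mrps10 (3.68 RPKM), Mrpl17 (3.98 RPKM) and Mrpl41 (4.38 RPKM).

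The cells were proB cells sorted from the bone marrow of C57BL/6 mice aged 6 to 7 weeks, as Hardy fraction B or as the later Hardy fraction C+C' (called fraction C here). Each fraction came from wild-type (wt) mice and from 2 homozygous mutants, Ikaros_ZnF1-/- and Ikaros_ZnF4-/- (called ZnF1 and ZnF4), named for the first and the fourth of the zinc fingers with which the transcription factor Ikaros, encoded by Ikzf1, binds DNA. Each combination of genotype and fraction is 1 library, and the labels do not say how many mice went into one, so no replicate error exists for any single value and every difference between 2 libraries is a description without a test. No treatment or other allele is named in the labels of the 6 libraries.

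Mitochondria keep a small genome of their own that encodes core subunits of the respiratory chain and the RNAs of a dedicated ribosome. All proteins of that ribosome are encoded in the nucleus, made in the cytosol and imported. The large subunit holds the centre where peptide bonds form and the exit tunnel of the new chain, and the small subunit reads the mRNA. Part of the proteins descend from bacterial ribosomal proteins, and others were added during the evolution of mitochondria. Among B-cell precursors, fraction C' is known for large, cycling cells.

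Of the 73 members, 48 encode proteins of the large subunit and 25 proteins of the small subunit. Mrps18a and Mrps30 carry an Mrps name but sit in the large subunit and were counted there. A bacterial homologue is known for the product of 47 members, and 26 members lack one.

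Promoter sequences were read for the members from the RefSeq table of mouse promoters (build GRCm38.p6, 250 bases before to 50 bases after the start), which had an entry for 64 of the 73. Mrpl13, Mrpl15, Mrpl19, Mrpl38, Mrpl4, Mrpl54, Mrps28, Mrps34 and Mrps35 were not matched. Each promoter was searched on both strands for short letter strings that stand for the binding sites of factors. For factors known to act on mitochondrial genes these were CCGGAAG (the ETS family, to which the GABP factor belongs), GCGCATG (part of the palindromic NRF1 site), AAGATGG (YY1) and CACGTG (the E-box bound by Myc). TGGGAA, the core bound by Ikaros, the factor mutated here, was searched too. The strings can overlap in part: ETS and YY1 share AAG, YY1 and the Ikaros core share TGG, and NRF1 strings on opposite strands can share letters.

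The 5 windows below are shown because they belong to members on which the comparisons turn, and because each holds at least 1 of the strings. Each window is the 120 bases directly before the RefSeq start, written in the direction of transcription, with the searched letters in capitals. Mrpl22 (chr11:58171544-58171663, plus strand) holds the ETS string and the NRF1 string. Mrps22 (chr9:98601680-98601799, minus strand) holds the Ikaros core, read on the opposite strand, and the ETS string. Mrpl33 (chr5:31613831-31613950, plus strand) holds the NRF1 string, Mrps18a (chr17:46110884-46111003, plus strand) the ETS string, and Mrpl52 (chr14:54426789-54426908, plus strand) the YY1 string and the ETS string on the opposite strand.
Mrpl22: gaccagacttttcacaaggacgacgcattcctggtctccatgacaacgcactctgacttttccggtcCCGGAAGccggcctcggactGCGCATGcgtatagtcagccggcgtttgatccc
Mrps22: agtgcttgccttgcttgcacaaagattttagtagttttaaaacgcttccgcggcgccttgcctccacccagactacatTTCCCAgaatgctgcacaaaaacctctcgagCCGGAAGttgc
Mrpl33: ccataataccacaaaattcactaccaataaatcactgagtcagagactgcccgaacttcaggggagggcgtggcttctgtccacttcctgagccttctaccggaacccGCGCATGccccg
Mrps18a: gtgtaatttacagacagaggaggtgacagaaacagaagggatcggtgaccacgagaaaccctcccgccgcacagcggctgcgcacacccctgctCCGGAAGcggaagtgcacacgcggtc
Mrpl52: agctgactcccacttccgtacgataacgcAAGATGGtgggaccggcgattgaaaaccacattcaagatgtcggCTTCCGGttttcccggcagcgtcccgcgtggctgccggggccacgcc

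The ETS string was found in 21 of the 64 promoters (32.8%), against 9.14% of the 27025 promoters in the table and 19.6% of the 7791 promoters of genes past the filter. The YY1 string was found in 13 (20.3%), against 6.46% of all promoters and 7.71% of those of genes past the filter. The NRF1 string was found in 8 (12.5%), against 4.03% and 7.59%. At least 1 of these 3 strings occurred in 33 of the 64 (51.6%), against 17.9% of all promoters and 31.0% of those of genes past the filter. The E-box occurred in 5 (7.81%, against 7.24% and 10.9%) and the Ikaros core in 18 (28.1%, against 25.5% and 22.5%), shares close to those of other promoters. A match is a description of the letters in this window and says nothing of binding.

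The members were expressed at moderate levels. The median of their mean levels was 18.7 RPKM, against 12.6 RPKM over all genes past the filter, and 58 members had a mean of at least 10 RPKM. RPKM is scaled by transcript length, but other differences between genes were not checked, so an order of levels between genes is rough. In wt B, for example, 79 cytosolic ribosomal protein genes had a median of 4.2 RPKM, beside 17.5 RPKM for the members. Why they read so low was not checked. Among the members, the median of the mean levels was 19.5 RPKM for the large subunit and 17.7 RPKM for the small subunit. The 5 highest members were Mrpl24, Mrpl33, Mrpl28, Mrpl13 and Mrpl20, all of the large subunit and all with bacterial homologues.

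Mrpl24, whose bacterial homologue lies at the exit tunnel, measured 77.2 RPKM in wt B, 87.1 in wt C, 65.7 in ZnF4 B, 72.1 in ZnF4 C, 91.3 in ZnF1 B and 90.4 in ZnF1 C. It was the highest member on average, at 80.6 RPKM, and both ZnF4 libraries lay below both wt libraries. Mrpl28 measured 47.4 RPKM in wt B, 64.7 in wt C, 43.7 in ZnF4 B, 58.0 in ZnF4 C, 60.5 in ZnF1 B and 45.7 in ZnF1 C, so that fraction C was the higher in wt and ZnF4 and the lower in ZnF1. Mrpl20 showed the same order within each genotype, with 39.0 and 51.3 RPKM in wt B and C, 36.2 and 46.8 in ZnF4, and 55.9 and 46.2 in ZnF1. At the low end, Mrps10 measured 3.2 and 3.9 RPKM in wt B and C, 3.6 and 2.7 in ZnF4, and 4.3 and 4.4 in ZnF1. Mrpl17 measured 4.1 and 6.0 RPKM in wt B and C, 2.6 and 3.5 in ZnF4, and 3.9 and 3.8 in ZnF1, highest in wt C. Mrpl41 measured 3.6 and 3.9 RPKM in wt B and C, 3.7 and 6.2 in ZnF4, and 4.6 and 4.3 in ZnF1, highest in ZnF4 C. At such levels the rounding of the table to 0.1 RPKM and the unknown read depth limit the precision.

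**Figure D1:**
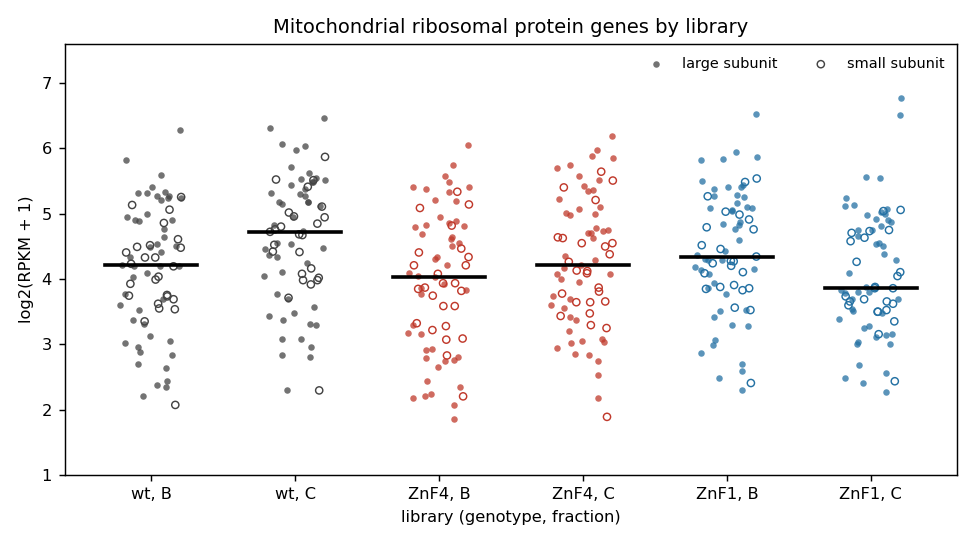
Levels of the 73 members in each of the 6 libraries as log2(RPKM + 1), 1 point per member, with the library's median marked. The summed level of the members was highest in wt C (2071 RPKM) and lowest in ZnF4 B (1374 RPKM).

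Summed over the 73 members, the level was 1512 RPKM in wt B, 2071 in wt C, 1374 in ZnF4 B, 1668 in ZnF4 C, 1796 in ZnF1 B and 1447 in ZnF1 C. As a share of all RPKM in the table this was 0.579% and 0.739% in wt, 0.540% and 0.605% in ZnF4, and 0.624% and 0.416% in ZnF1, each as B and then C. Wt C was the highest of the 6 libraries for 49 members (67.1%), against 24.6% of all genes past the filter. ZnF4 B was the lowest for 34 (46.6%, background 32.4%) and ZnF1 C for 29 (39.7%, background 31.1%). The range over the 6 libraries had a median of 0.87 on the log2(RPKM + 1) scale, close to the 0.91 of all genes past the filter, and ran from 0.36 for Mrps31 to 1.60 for Mrps22.

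The libraries differed in ways that touch these comparisons. Ikzf1 read 150.3 and 169.4 RPKM in wt B and C, 181.5 and 154.1 in ZnF1, and 431.6 and 425.1 in ZnF4; a whole-gene value does not check the loss of 1 finger. Xist was present only in the 2 wt libraries and Eif2s3y only in the 4 mutant libraries, so the sex of the mice cannot be told apart from the genotype. The 15 proB markers summed to between 2541 and 5393 RPKM in each library, but did not move as one. Against wt B, 10 were higher and 5 lower in ZnF4 B, the lower ones at least 1.5-fold and Dntt, the gene of terminal transferase, by the most (18.7 against 568.7 RPKM). In ZnF1 C, 11 of the 15 were at least 2-fold lower than in ZnF1 B. The same list is used below to rescale the libraries. The summed level of 15 granulocyte and monocyte markers lay between 1034 and 3857 RPKM in 5 libraries and at 43522 RPKM in ZnF1 C, where 9 erythroid markers summed to 4229 RPKM against 124.7 to 322.3 RPKM elsewhere. The part of other cell types in the values below was not tested, and in bulk RNA fewer cells of a type and less RNA per cell cannot be told apart.

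In wt cells, every one of the 73 members was higher in fraction C than in fraction B, against 56.7% of all genes past the filter (40.9% were lower). The median difference was 0.44 on the log2(RPKM + 1) scale, a 1.36-fold level, against 0.06 over all genes. Differences and folds from here on are on this scale, which understates the change of low genes. The step ran from 0.09 (Mrpl41) to 0.86 (Mrpl52). At least 1.5-fold higher were 15 members (20.5%), against 4.83% of all genes, and no member reached 2-fold, against 0.338%.

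Mrpl52, a large-subunit protein without a bacterial homologue, went from 20.3 RPKM in wt B to 37.6 in wt C, a 1.81-fold difference. Mrpl12, the homologue of the bacterial stalk protein that recruits translation factors, went from 22.2 to 38.4 RPKM (1.70-fold), and Mrps18a from 39.0 to 66.1 (1.68-fold). Mrps21, a small-subunit protein with a bacterial homologue, went from 19.1 to 31.4 RPKM (1.61-fold), and Mrpl22, whose bacterial homologue lines the exit tunnel, from 5.2 to 8.9 (1.60-fold). Mrps12, the homologue of a bacterial protein at the decoding site, went from 17.3 to 27.8 RPKM (1.57-fold). These 6 members come from both subunits.

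The median step was 0.44 over the 48 large-subunit members and 0.45 over the 25 small-subunit members. It was 0.44 over members with a bacterial homologue and 0.43 over those without one. Neither pair was tested. Members have short transcripts, with a median length of 1049 bases against 2709 for all genes past the filter. Short genes as a class were higher in wt C, and the members stood above other genes in each length class. Under 1000 bases the median was 0.50 over 31 members and 0.19 over 979 other genes, from 1000 to under 2000 bases 0.42 (32 members) and 0.11 (2556 other genes), and at 2000 bases or more 0.37 (10 members) and 0.03 (7335 other genes).

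Most markers of other cells were lower in wt C than in wt B. This held for all 15 granulocyte and monocyte markers, with a sum of 2718 against 3857 RPKM, for the 8 of 10 NK markers past the filter and for the 9 of 10 plasmacytoid dendritic markers past it. Over all 10 genes of each list, the NK markers summed to 46.7 against 89.9 RPKM and the plasmacytoid dendritic markers to 218.9 against 486.1 RPKM. Of 9 erythroid markers 8 were lower and 1 higher, and of 6 T-cell markers past the filter 5 were lower and 1, Lat, higher, so that the 10 T-cell markers summed to 23.5 RPKM in wt C and 22.4 in wt B. The 15 proB markers summed to 3169 RPKM in wt C and 3840 in wt B. Rescaling the libraries on the proB markers left 73 of 73 members higher in wt C, with a median of 0.57 against 0.18 over all genes. This rescaling raised wt C against wt B, from a median of 0.06 over all genes, so it could not have lowered that count.

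**Figure D2:**
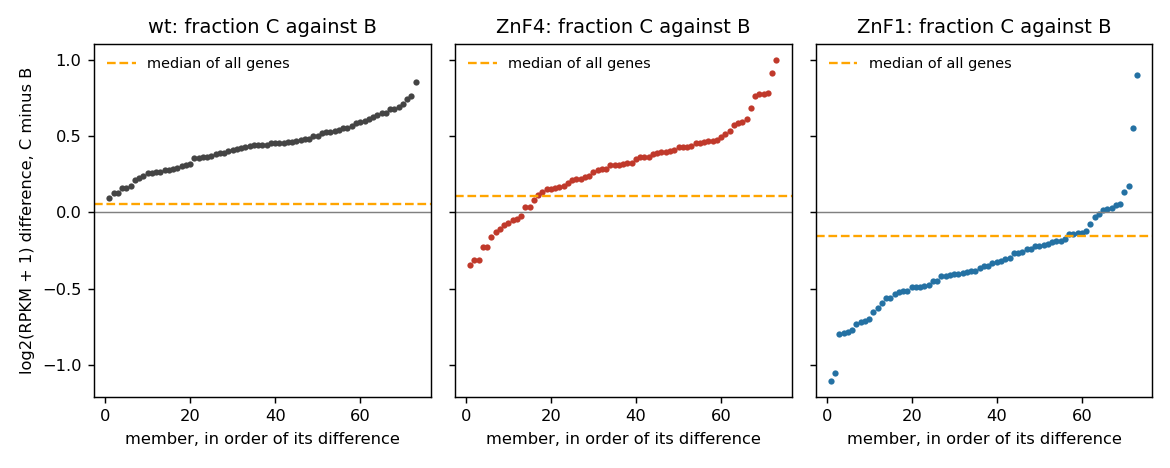
Difference between fraction C and fraction B, on the log2(RPKM + 1) scale, of each of the 73 members within wt, ZnF4 and ZnF1, ordered by size. The dashed line is the median of all genes past the filter. The points lie above 0 for 73 members in wt and 60 in ZnF4 and below 0 for 64 in ZnF1. The ZnF1 direction flips with the libraries rescaled on the proB markers (70 above 0), where the median over all genes is 0.59.

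In ZnF4 cells, 60 of the 73 members were higher in fraction C and 13 lower, against 61.3% and 36.1% of all genes past the filter. The median difference was 0.32, against 0.11 over all genes, and it was 0.18 against -0.01 when the libraries were rescaled to a common median. Among transcripts under 1000 bases the members were near other genes, with a median of 0.28 against 0.23. From 1000 to under 2000 bases the medians were 0.31 and 0.17, and at 2000 bases or more 0.40 and 0.08. At least 1.5-fold higher were 10 members (13.7%), near the background of 11.7%. The 60 members were higher in C in both wt and ZnF4, against 44% of all genes. The wt and ZnF4 steps share no library, yet the size of a member's step in one was not related to its size in the other (Pearson r = -0.02 and Spearman rho = -0.01 across the 73 members, which share libraries and are not independent replicates).

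Mrpl12, Mrpl42 and Mrpl47 were at least 1.5-fold higher in C in both genotypes, 3 members of 73 against 2.04% of all genes. Mrpl12 measured 14.1 RPKM in ZnF4 B and 25.0 in ZnF4 C, a 1.72-fold difference beside the 1.70-fold of wt. Mrpl42, a protein without a bacterial homologue, measured 12.7 and 19.7 RPKM in wt B and C and 8.8 and 15.8 in ZnF4 B and C. Mrpl47 measured 10.5 and 16.3 RPKM in wt and 5.9 and 12 in ZnF4. Mrpl27, whose bacterial homologue reaches the peptidyl transferase centre, had the largest ZnF4 step, from 3.6 to 8.2 RPKM (2-fold, 1 member against 2.76% of all genes at least 2-fold higher), against 5.5 and 6.1 RPKM in wt and 6.9 and 7.0 in ZnF1.

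The 13 members that were lower in ZnF4 C were Mrpl4, Mrpl16, Mrpl36, Mrpl37, Mrpl38, Mrpl48, Mrpl52, Mrpl53, Mrpl55, Mrps10, Mrps26, Mrps31 and Mrps34. Mrpl52, the member with the largest wt step, measured 28.1 RPKM in ZnF4 B and 23.8 in ZnF4 C, and 34.9 and 31.6 in ZnF1. Mrps18a, by contrast, was higher in C in ZnF4 too, at 40.5 and 52.4 RPKM. All 15 granulocyte and monocyte markers were higher in ZnF4 C than in ZnF4 B, with sums of 1789 and 1034 RPKM, the opposite of their order in wt.

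In ZnF1 cells the members went the other way: 64 of 73 were lower in fraction C and 9 higher, against 62.4% and 36.2% of all genes past the filter. The median difference was -0.35, against -0.16 over all genes. At least 1.5-fold lower were 13 members (17.8%), near the background of 15.7%. The direction rests on the scaling: with libraries rescaled on the 15 proB markers, 70 members were higher in ZnF1 C and 3 lower, with a median of 0.44 against 0.59 over all genes. In ZnF1 C the proB markers summed to 2541 RPKM, against 5393 in ZnF1 B, while all 15 granulocyte and monocyte markers and all 9 erythroid markers were higher in C.

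Mrps18a measured 40.6 RPKM in ZnF1 B and 24.3 in ZnF1 C, against a higher value in C in wt and ZnF4. Mrps12 measured 29.1 RPKM in ZnF1 B and 13.5 in ZnF1 C, a 2.08-fold difference, beside 21.1 and 21.6 RPKM in ZnF4, and Mrpl53, a protein without a bacterial homologue, 23.1 and 10.2 RPKM (2.15-fold). These were the 2 members at least 2-fold lower, against 4.16% of all genes.

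Mrpl33 and Mrpl22 stood out among the 9 members that were higher in ZnF1 C, with Mrpl10, Mrpl14, Mrpl27, Mrps10, Mrps17, Mrps18c and Mrps21 making up the rest. Mrpl33, one of the shortest large-subunit proteins, measured 57.2 RPKM in ZnF1 B and 107.8 in ZnF1 C, the highest value of any member in any library. It measured 37.0 and 44.6 RPKM in wt B and C and 41.4 and 57.1 in ZnF4 B and C. Mrpl22 measured 5.0 and 7.8 RPKM in ZnF1 B and C and 3.2 and 4.8 in ZnF4.

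Higher in C in all 3 genotypes were 8 members (11%), near the background of 12.2%. A limma model of the whole table had additive effects of genotype and of fraction, took its spread from how unevenly they repeated, and kept 2 residual degrees of freedom. In it no member and none of the 10943 genes had an adjusted p under 0.05 for C against B. At an unadjusted p under 0.05 were Mrpl22 (0.56 ± 0.16 SE, adjusted p = 0.854 by limma) and Mrpl33 (0.54 ± 0.18 SE, adjusted p = 0.854 by limma), 2 of 73 members against 4.67% of all genes. Over 6 libraries 58 members had a higher estimate in C, with a median of 0.13 against 0.04 over all genes. With wt B or wt C left out, the lone wt library adds nothing to the fraction effect. Both fits then rest on ZnF1 and ZnF4 alone and give the same estimates, 32 members higher with a median of -0.02. They cannot show how far the estimate rests on either wt library. With the 4 wt and ZnF4 libraries alone, 71 of 73 members had a higher estimate in C, with a median of 0.37 against 0.08 over all genes. In that limma fit 44 members had an unadjusted p under 0.05, beside 2871 of all 10943 genes. The smallest adjusted p of a member in limma was 0.0796, so that again none was called.

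Set against wt in the same fraction, members were lower in ZnF4. In fraction C, 65 of 73 were lower and 8 higher, against 53% and 45.4% of all genes past the filter, with a median of -0.35 against -0.05. In fraction B, 55 were lower and 18 higher, against 55.8% and 42.9%, with a median of -0.17 against -0.09. By transcript length, the B medians of members and other genes were close under 1000 bases (-0.23 and -0.19). They were also close from 1000 to under 2000 bases (-0.13 and -0.15), but not at 2000 bases or more (-0.39 and -0.06). In C the members were lower in each length class (-0.37 and -0.14, -0.27 and -0.08, -0.33 and -0.02). At least 1.5-fold lower were 18 members in C (24.7%, background 15.8%) and 8 in B (11%, background 21.3%); neither share was tested against its background. Lower in both fractions were 52 members (71.2%), against 45.4% of all genes, and higher in both were 5 (6.85%), against 35.1%.

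Both ZnF4 libraries lay below both wt libraries for 23 members (31.5%), the same share as over all genes (33%). They lay above both for Mrpl49 and Mrpl53, 2 members of 73 against 27.7% of all genes. The median in C was -0.31 for the large subunit and -0.40 for the small subunit, in which 24 of 25 members were lower. Granulocyte and monocyte markers were lower in ZnF4 than in wt for 15 of 15 in B and 13 of 15 in C, and the NK markers summed to 2.5 and 9.5 RPKM in ZnF4 B and C against 89.9 and 46.7 RPKM in wt, with Gzma, Gzmb, Ncr1, Klrb1c, Klrd1, Ccl5, Eomes and Tbx21 at 0 in ZnF4 B.

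Mrps22, a small-subunit protein without a bacterial homologue, differed most: 15.4 RPKM in wt B against 7.4 in ZnF4 B, and 24.5 in wt C against 11.5 in ZnF4 C. Both ZnF4 values were below both wt values, by 1.95-fold in B and 2.04-fold in C. Its ZnF1 values were 14.0 RPKM in B and 10.3 in C, near wt in B and lower in C. Mrps22 was the 1 member at least 2-fold lower in ZnF4 C, against 6.12% of all genes.

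Mrps5, whose bacterial homologue takes part in accurate decoding, measured 10.7 and 14.8 RPKM in wt B and C and 6.1 and 8.8 in ZnF4, 1.65-fold and 1.61-fold lower, with 10.8 and 7.9 in ZnF1. Mrpl12 was 1.54-fold lower in ZnF4 B and 1.52-fold lower in ZnF4 C, and its ZnF4 C value of 25.0 RPKM lay above the 22.2 RPKM of wt B, with 32.2 and 29.2 RPKM in ZnF1. Mrps21 measured 12.4 and 16.5 RPKM in ZnF4 B and C against 19.1 and 31.4 in wt and 21.0 and 23.8 in ZnF1, and Mrpl22 3.2 and 4.8 RPKM against 5.2 and 8.9. Mrps22, Mrps5, Mrpl12 and Mrps21 were at least 1.5-fold lower in both fractions, 4 members (5.48%) against 12.5% of all genes.

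The 5 members higher in ZnF4 in both fractions were Mrpl49, Mrpl33, Mrps9, Mrpl53 and Mrpl41. Mrpl49, a large-subunit protein without a bacterial homologue, measured 52.6 and 61.9 RPKM in ZnF4 B and C against 39.3 and 48.1 in wt and 41.6 and 30.9 in ZnF1. Mrps9 measured 39.4 and 49.0 RPKM in ZnF4 against 32.4 and 44.7 in wt and 43.8 and 25.9 in ZnF1. Mrpl53 measured 23.4 and 18.6 RPKM in ZnF4 against 11.9 and 17.9 in wt, a 1.89-fold difference in B that was 1.04-fold in C. Mrpl52 and Mrpl27 moved in opposite directions between the fractions: Mrpl52 was 1.37-fold higher in ZnF4 B and 1.56-fold lower in ZnF4 C, and Mrpl27 1.41-fold lower in B and 1.296-fold higher in C.

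**Figure D3:**
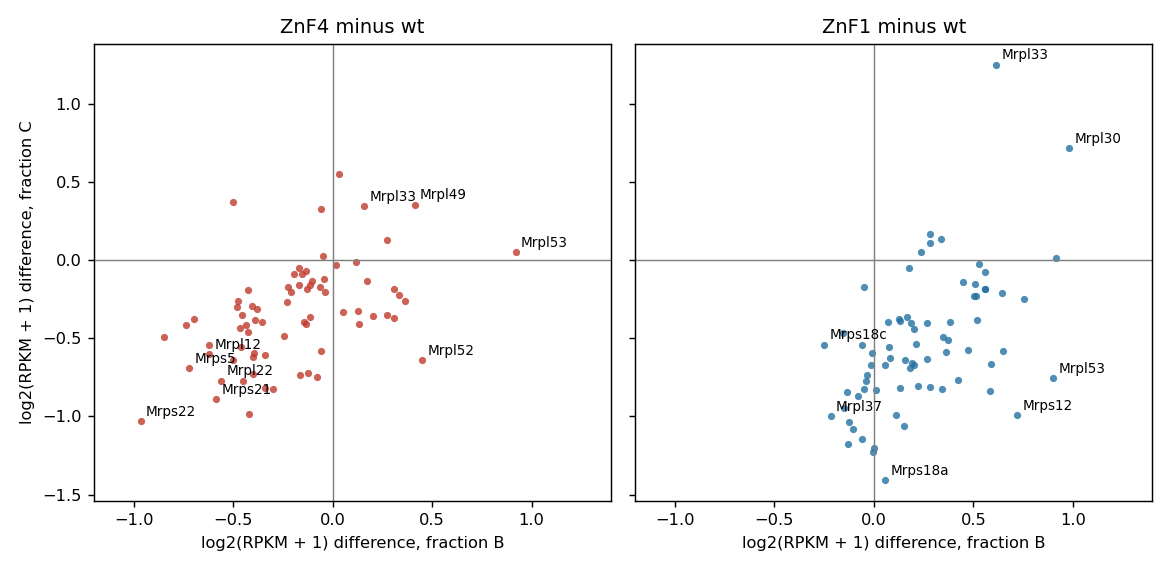
Difference from wt of each of the 73 members in fraction B (horizontal axis) and fraction C (vertical axis) on the log2(RPKM + 1) scale, for ZnF4 and ZnF1, with the members named in the text labelled. In ZnF4, 52 members lie below 0 on both axes. In ZnF1, 47 lie above 0 in B and below 0 in C. With the libraries rescaled on the proB markers, the ZnF1 B median is -0.10, against -0.25 over all genes.

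In the limma fit of all 6 libraries, none of the 73 members was called between ZnF4 and wt at an adjusted p under 0.05, beside 0.00914% of all genes called higher and 0.0183% called lower. At an unadjusted p under 0.05 were 5 members, all lower in ZnF4, against 17.6% of all genes in either direction. These were Mrps21 (-0.74 ± 0.20 SE, adjusted p = 0.188 by limma), Mrpl22 (-0.67 ± 0.19 SE, adjusted p = 0.209), Mrps18c (-0.58 ± 0.18 SE, adjusted p = 0.227), Mrps22 (-0.997 ± 0.320 SE, adjusted p = 0.236) and Mrps18b (-0.61 ± 0.23 SE, adjusted p = 0.282). Fitted on the 4 wt and ZnF4 libraries alone, limma called 22 members, 21 lower in ZnF4 and Mrpl49 higher (0.38 ± 0.09 SE, adjusted p = 0.0366). In that fit 19.4% of all genes were called lower and 12.5% higher, so that the members' total share was near the background and their direction was mostly downward. Mrps22 had the smallest adjusted p among members there, 0.0072 (limma, -0.997 ± 0.108 SE). This fit takes the 2 fractions of a genotype as its only replication, and p-values measure how evenly a difference repeats across fractions, not the spread between mice. Over 6 libraries 62 of 73 limma estimates were lower in ZnF4, with a median of -0.27. Without wt C 40 were lower and 33 higher, with a median of -0.03. That fit takes its fraction effect from the mutants alone, ZnF1 included. It therefore cannot show how far the direction of the group rests on wt C. Set directly against wt B, 55 of 73 members were lower in ZnF4 B, with a median of -0.17. In limma without ZnF4 B, 49 estimates were lower and 24 higher, with a median of -0.14.

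Set against wt, ZnF1 members were higher in fraction B and lower in fraction C. In B, 54 of 73 were higher, 18 lower and 1 equal, against 54.2% and 43.8% of all genes past the filter, with a median of 0.20 against 0.04. In C, 66 were lower and 7 higher, against 58.8% and 40.1%, with a median of -0.58, a 1.496-fold lower level, against -0.16. At least 1.5-fold lower in C were 36 members (49.3%, background 23%), and at least 1.5-fold higher in B were 10 (13.7%, background 7.56%). The pattern of higher in B and lower in C held for 47 members (64.4%), against 29.5% of all genes. Rescaled on the proB markers, the B median was -0.10 with 28 members higher, against -0.25 over all genes. Its direction thus flipped together with that of genes at large. The C median was -0.24 with 54 members lower, against 0.17 over all genes.

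At least 2-fold lower in ZnF1 C than in wt C were 9 members (12.3%, background 7.39%): Mrps18a, Mrpl2, Mrpl13, Mrps22, Mrpl38, Mrpl47, Mrps28, Mrpl50 and Mrpl37. Mrps18a had the largest difference, 24.3 RPKM in ZnF1 C against 66.1 in wt C (2.65-fold), while in B it measured 40.6 and 39.0 RPKM. Mrpl2, whose bacterial homologue is close to the peptidyl transferase centre, measured 26.0 RPKM in ZnF1 C against 62.2 in wt C (2.34-fold) and 41.4 against 41.6 in B. Mrpl13 measured 33.7 RPKM in ZnF1 C against 78.7 in wt C (2.30-fold) and 55.3 RPKM in both B libraries, beside 41.6 and 50.9 RPKM in ZnF4 B and C. For these 3 members the ZnF1 and wt values were nearly equal in B and far apart in C.

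Mrpl37, a large-subunit protein without a bacterial homologue, measured 32.1 and 22.1 RPKM in ZnF1 B and C against 37.5 and 45.2 in wt and 46.6 and 39.7 in ZnF4, so that ZnF1 was the lowest of the 3 genotypes in both fractions. Mrps18c, Mrpl14, Mrpl1 and Mrps35 were also lower in both. Mrps18c measured 17.9 and 18.2 RPKM in ZnF1 against 21.5 and 26.9 in wt, and Mrpl14 27.6 and 30.4 against 30.9 and 42.4 (18.7 and 32.5 in ZnF4). Mrpl1 measured 6.3 and 4.6 RPKM in ZnF1 B and C, 7.1 and 9.8 in wt, and 3.5 and 6.7 in ZnF4. Mrps35 measured 19.3 and 16.2 RPKM in ZnF1, 21.3 and 29.8 in wt, and 19.2 and 22.4 in ZnF4. Lower in both fractions were 18 members (24.7%), near the background of 28.3%.

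Higher in ZnF1 in both fractions were 7 members, 9.59% against a background of 24.1%, and Mrpl30 and Mrpl33 led them. Mrpl30, with a bacterial homologue in the large subunit, measured 14.4 and 13 RPKM in ZnF1 B and C, against 6.8 and 7.5 in wt and 6.5 and 9.7 in ZnF4, so that both ZnF1 libraries lay above all 4 others. Mrpl33 was 1.53-fold higher than wt in B and 2.39-fold higher in C. In limma over 6 libraries these 2 were the members with an unadjusted p under 0.05 for ZnF1 against wt (Mrpl33 0.93 ± 0.22 SE, adjusted p = 0.440; Mrpl30 0.85 ± 0.23 SE, adjusted p = 0.482), 2 of 73 against 9.3% of all genes, and no member was called. Without the ZnF1 B library limma called 32 members, 31 of them lower, beside 20.7% of all genes called lower and 16.9% higher; that fit compares ZnF1 C alone with wt. The median estimate over 6 libraries was -0.16, and it changed sign without wt C (0.07, with 43 members higher) and without ZnF1 C (0.19, with 53 higher). Mrps12 and Mrpl53 had the largest opposite differences: Mrps12 was 1.64-fold higher in ZnF1 B and 1.99-fold lower in ZnF1 C, and Mrpl53 1.87-fold higher and 1.69-fold lower.

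**Figure D4:**
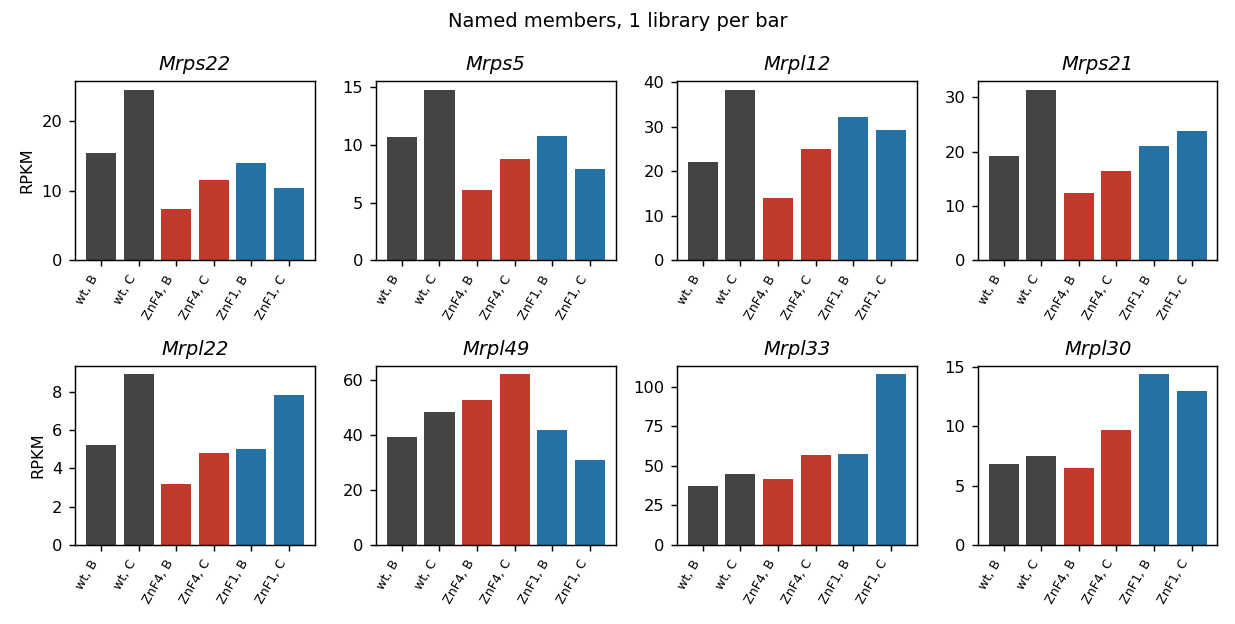
RPKM of members described in the text, 1 bar per library and 1 panel per gene, coloured by genotype. Each bar is a single library, so no error bar is drawn; Mrps22 is lower in both ZnF4 libraries and Mrpl30 higher in both ZnF1 libraries than in either wt library.

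The mutants were also set against each other. In fraction B, 67 members were lower in ZnF4 than in ZnF1 and 5 higher, against 60.8% and 38% of all genes past the filter, with a median of -0.44 against -0.17. Under 1000 bases the medians of members and other genes were -0.54 and -0.39, and from 1000 to under 2000 bases -0.34 and -0.26. At 2000 bases or more they were -0.51 and -0.11. At least 1.5-fold lower were 23 members (31.5%, background 24.3%). In fraction C, 50 were higher in ZnF4 and 22 lower, against 58.3% and 40.8%, with a median of 0.17 against 0.13, so that members were close to genes at large there. Rescaled on the proB markers the C median was -0.57, with 66 members lower in ZnF4. The median over all genes was then -0.58, so the members were again close to genes at large. All 47 members with a bacterial homologue were lower in ZnF4 B than in ZnF1 B, as were 20 of the 26 without one.

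Limma over 6 libraries called no member between ZnF4 and ZnF1, beside 1.14% of all genes called higher and 0.676% lower, and 6 of the 73 members had an unadjusted p under 0.05, against 22.7% of all genes. Mrpl37 (0.67 ± 0.24 SE, adjusted p = 0.208 by limma) and Mrpl49 (0.66 ± 0.24 SE, adjusted p = 0.214) were the higher ones in ZnF4. The lower ones were led by Mrpl30 (-0.71 ± 0.23 SE, adjusted p = 0.178 by limma). Mrpl30 measured 6.5 and 9.7 RPKM in ZnF4 B and C against 14.4 and 13 in ZnF1.

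The 3 Mrps18 genes are paralogs whose products descend from a single bacterial protein; that of Mrps18a sits in the large subunit and those of Mrps18b and Mrps18c in the small subunit. Their values could share reads only where their sequences are alike, which was not checked. Mrps18a was at 39.0 and 66.1 RPKM in wt B and C and at 40.5 and 52.4 in ZnF4. Mrps18b measured 10.6 and 15.2 RPKM in wt, 7.5 and 8.5 in ZnF4 and 10.5 and 9.2 in ZnF1. Mrps18c measured 21.5 and 26.9 RPKM in wt and 13.6 and 18.2 in ZnF4. In fraction B, ZnF4 was 1.36-fold lower than wt for Mrps18b and 1.54-fold lower for Mrps18c, while Mrps18a was 1.04-fold higher.

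Genes that work with the mitochondrial ribosome were read from lists of names. Of all genes past the filter, 56.7% were higher in wt C than in wt B, with a median of 0.06. In ZnF4 C against ZnF4 B 61.3% were higher (median 0.11), and in ZnF1 C against wt C 58.8% were lower (median -0.16). The 7 ribosomal proteins without an Mrpl or Mrps name (among them Dap3 and Ptcd3 of the small subunit, and Ict1, a peptidyl-tRNA hydrolase built into the large subunit) were all higher in wt C than in wt B, with a median of 0.39. Of 20 mitochondrial aminoacyl-tRNA synthetases and related tRNA-charging enzymes, 19 were higher in wt C (median 0.36), 18 higher in ZnF4 C (0.24), and all 20 lower in ZnF1 C than in wt C (-0.76; 16 lower with the libraries rescaled on the proB markers). Of 14 translation factors, 11 were higher in wt C (0.27); the elongation factor gene Gfm1 measured 20.1 and 30.6 RPKM in wt B and C and 13.3 and 21.3 in ZnF4. Of 22 genes of ribosome assembly and rRNA modification, 16 were higher in wt C, with a smaller median of 0.14. Of 8 genes that transcribe or maintain the mitochondrial genome, 7 were higher in wt C (0.31) and 2 in ZnF4 C (-0.14). Tfam, which packages that genome, measured 14.9 and 20.4 RPKM in wt and 14.2 and 19.0 in ZnF4. Rescaled to a common median or on the proB markers, the median of each of these 5 lists stayed above 0 for the wt step. Neither rescaling could easily have changed that sign. The first took the median over all genes only from 0.06 to 0.02, beside a smallest list median of 0.14, and the second raises the wt step. In the limma fit of 6 libraries no gene of the 5 lists was called in any of the 4 contrasts.

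Subunits of oxidative phosphorylation, the respiratory chain and ATP synthase to which mitochondrial translation contributes, were higher in wt C for 69 of 73 genes (median 0.40) and in ZnF4 C for 70 (0.45). The shares over all genes were 56.7% and 61.3%. Cytosolic ribosomal proteins were higher in wt C for 64 of 71 (0.38). Most genes of that list read low: over its 79 genes the median was 4.2 RPKM in wt B and 5.7 in wt C. The highest values there were 890.3 and 1265.3 RPKM. Why so many read low was not checked, which limits the use of this list beside the members. In ZnF1 C against wt C the median was -0.19 over oxidative phosphorylation and -0.16 over cytosolic ribosomal proteins, near the -0.16 of all genes, beside -0.58 over the mitochondrial ribosomal members. Rescaled on the proB markers, the medians were 0.16 and 0.18, against 0.17 over all genes and -0.24 over the members. The difference between these lists was not tested.

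Of 11 nuclear regulators of mitochondrial genes past the filter, Nrf1 measured 23.9 and 24.9 RPKM in wt B and C, Gabpa 25.1 and 26.6, and Yy1 33.7 and 38.0, steps smaller than the members' median. Myc measured 48.7 and 91.7 RPKM in wt B and C, 5.5 and 11.3 in ZnF4, and 25.7 and 22.5 in ZnF1, and Pprc1, a coactivator of the PGC-1 family, 16 and 25.9 in wt, 9.3 and 9.9 in ZnF4, and 14.3 and 12.1 in ZnF1. Limma over 6 libraries called none of the 11 in any contrast; 4 had an unadjusted p under 0.05 between ZnF4 and wt, beside 17.6% of all genes.

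**Figure D5:**
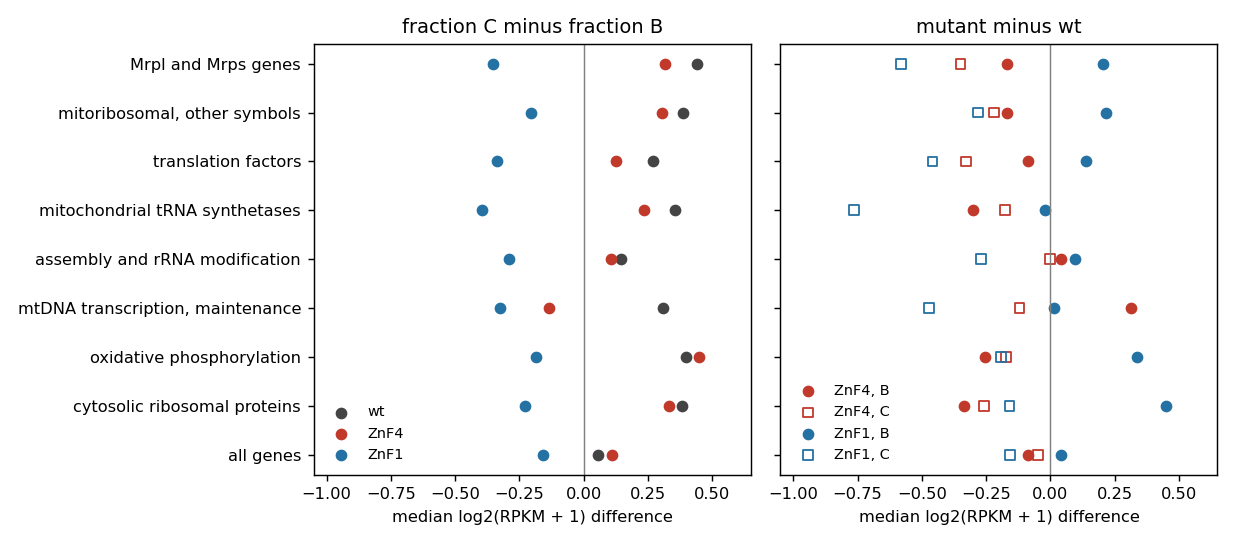
Median difference on the log2(RPKM + 1) scale of the members, of companion lists and of all genes past the filter, for fraction C minus B within each genotype (left) and mutant minus wt in each fraction (right). The members' medians are 0.44 in wt, 0.32 in ZnF4 and -0.35 in ZnF1 for the step, and -0.58 for ZnF1 against wt in fraction C. Rescaled on the proB markers, the ZnF1 step is 0.44, against 0.59 over all genes.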

How the data were processed

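RNA was measured in 6 libraries of sorted proB cells, 1 for each of wt, ZnF1 and ZnF4 in fractions B and C, made with Illumina TruSeq per the labels' protocols. The authors deposited RPKM values, rounded to 0.1, for 26532 transcript entries. The submitters' processing notes name TopHat, bedtools and the mouse build mm9, without versions or roles; how the read total behind RPKM was taken, and whether strand was used, is not stated there. Low values could be whole multiples of 1 read in 26.8% to 53.3% of cases, against 28.0% to 41.7% from the rounding alone, so reads were not recovered and the depth is unknown.

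One entry per symbol (the highest mean) and a mean of at least 1 RPKM left 10943 genes. Differences are of log2(RPKM + 1) (pseudocount 1). Between 2 libraries they carry no test and stand beside the same count over all genes. The fit across all genes used limma 3.58.1 in R 4.3.3 (genotype and fraction additive, trended variance, Benjamini-Hochberg over 10943 genes, 2 residual degrees of freedom, calls at an adjusted p under 0.05) and was tested on simulated data. Alternatives were a pseudocount of 0.25, a minimum mean of 5 RPKM or none, and the sum of all transcripts of a symbol. Others were rescaled libraries, limma without trend, subsets of genotypes and each library left out. Rescaling on the proB markers was added after seeing the data.

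The members and lists were chosen with earlier results of these data known. Members were named as the 5 highest and 3 lowest, up to 5 per direction with the largest smaller difference among those that moved alike in both fractions, up to 3 that moved alike in all genotypes, up to 2 with the largest opposite differences, and the Mrps18 paralogs. Mrpl2, Mrpl42, Mrpl47 and the companion genes given with values were named after their values were seen. Transcript lengths are from the deposited table, and promoters from RefSeq, GRCm38.p6, a build other than that of the table, matched by symbol.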

Additional observations from a re-analysis of the deposited data

Results flagged for a closer look

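The median difference of the members between fractions C and B had opposite signs in wt (0.44) and ZnF1 (-0.35), and in ZnF4 (0.32) and ZnF1 (-0.35). The median difference between ZnF1 and wt had opposite signs in fraction B (0.20) and fraction C (-0.58), and that between ZnF4 and ZnF1 in fraction B (-0.44) and fraction C (0.17). Rescaled on the proB markers, the ZnF1 step (0.44), ZnF1 against wt in B (-0.10) and ZnF4 against ZnF1 in C (-0.57) changed sign. The medians over all genes were then 0.59, -0.25 and -0.58, in the same order. With 1 library per group, none of these differences between effects was tested. Each involves ZnF1 C, in which the granulocyte and monocyte markers summed to 43522 RPKM, and their part in these signs was not tested.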

How the results depend on the processing

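No paired analysis was possible because the labels carry no replicate numbers and each group holds 1 library; the limma fit compares genotypes within fractions and fractions within genotypes. Of 138 alternative values, 106 kept their direction and stayed within 0.1 (medians, log2) or 1.5 times (counts) of the value reported, or remained at 0 calls. The tally is no measure of how firm the results are, because many of these values had little room to move. Some are 0 calls in fits that called no gene at all. A minimum mean of 5 RPKM kept 70 of the 73 members, and 7 of the 76 symbols had several transcripts to sum. The ZnF4 against wt median in B counted as kept although it went from -0.17 to -0.08 at a common median. Limma called 0 members in each contrast over 6 libraries. For ZnF4 against wt it called 22 in the wt and ZnF4 libraries alone; with each library left out in turn the counts ran from 0 to 22 (22 without ZnF1 C, 21 without ZnF1 B). The ranges were 0 to 32 for ZnF1 against wt (32 without ZnF1 B) and 0 to 19 for ZnF4 against ZnF1 (19 without ZnF1 C, 13 without ZnF1 B). The cause was not tested. The lone library that remains of a genotype is assumed to vary like the others. Each fit that called members also called many other genes. In the wt and ZnF4 libraries alone, 19.4% of all genes were called lower in ZnF4 and 12.5% higher. The counts of called members alone therefore do not set the members apart from genes at large.

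Rescaling the libraries to a common median gave medians of 0.18 (ZnF4 C against B), -0.23 (ZnF1 C against B), -0.46 (ZnF1 against wt in C), -0.30 and 0.0465 (ZnF4 against ZnF1 in B and C). Counts past 1.5-fold were then 6 (ZnF4 C higher than B), 5 (ZnF4 B lower than wt), 13 (ZnF4 B lower than ZnF1) and 7 (ZnF4 C higher than ZnF1).

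Rescaling on the proB markers, chosen after seeing the data, reversed 3 medians, given here with the median over all genes second. These were ZnF1 C against B (0.44, 0.59), ZnF1 against wt in B (-0.10, -0.25) and ZnF4 against ZnF1 in C (-0.57, -0.58). The other medians were 0.57 (wt C against B), 0.16 (ZnF4 C against B), -0.28 and -0.74 (ZnF4 against wt in B and C), -0.24 (ZnF1 against wt in C) and -0.24 (ZnF4 against ZnF1 in B). Counts past 1.5-fold were 33 (wt C higher), 6 (ZnF4 C higher), 0 (ZnF1 C lower than B), 51 (ZnF4 C lower than wt), 3 (ZnF1 B higher than wt), 12 (ZnF1 C lower than wt), 10 (ZnF4 B lower than ZnF1) and 0 (ZnF4 C higher than ZnF1). The cause was not tested. Read depth is unknown, so counting error could not be given for any value.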

Other observations

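Mrpl46, of the large subunit, and Mrps11, of the small subunit, are read in opposite directions from starts 42 bases apart on chromosome 7 (RefSeq, GRCm38.p6, 78783089 on the minus strand and 78783131 on the plus strand). Mrpl46 measured 17.4 and 25.7 RPKM in wt B and C, 17.6 and 25.2 in ZnF4, and 26.1 and 22.5 in ZnF1. Mrps11 measured 20.2 and 25.4 RPKM in wt, 17.5 and 23.9 in ZnF4, and 21.9 and 12.3 in ZnF1. Both were higher in C in wt and ZnF4 and lower in C in ZnF1, and ZnF1 C against wt C was 1.14-fold lower for Mrpl46 and 1.99-fold lower for Mrps11.

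Members with the ETS string in the promoter had a median wt step of 0.46, and those without it 0.44. The medians with and without were 0.53 and 0.43 for the YY1 string, 0.37 and 0.44 for the NRF1 string, and 0.31 and 0.45 for the Ikaros core. For ZnF4 against wt in fraction C, members with the Ikaros core had a median of -0.18 and those without it -0.36. None of these differences was tested.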
